A study of Mus musculus with 16 samples.

Results

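The genes described here encode the machinery that releases neurotransmitter from synaptic vesicles. They were chosen by name, from the families of synaptotagmins, synapsins, vesicle membrane proteins, SNARE proteins and their binding partners, complexins, active zone proteins, Rab3 GTPases, vesicular glutamate transporters and neurexins. The rule uses names only, although it was written with earlier results of these data known. Of the 22180 genes measured by probe sets with a single symbol, 78 met this rule. The mouse hippocampus was measured with 16 Affymetrix arrays in 4 groups of 4, and the values used are log2 intensities. Other genes that the family names admit were not analysed here.

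All mice were C57BL/6, were 8 to 10 weeks old and received lithium chloride at 10 mEq/kg, which lowers the seizure threshold. After 18 h they were given either saline or pilocarpine at 65 mg/kg, a muscarinic agonist that brings on status epilepticus (SE), a prolonged seizure. Control mice are labelled wild type with a glial cre, and Astro-D2KO mice carry the same glial cre with a floxed D2, the gene for the type 2 deiodinase Dio2 that makes active thyroid hormone. Both genotypes therefore carry the cre. The 4 groups are control saline, control SE, Astro-D2KO saline and Astro-D2KO SE, with 4 mice in each by their titles. The sources used here do not say which promoter drives the cre, which sex the mice were or when tissue was taken after pilocarpine. Effects of pilocarpine itself and of the seizure cannot be told apart in this design, and in bulk tissue fewer cells of a type and less RNA per cell cannot be told apart.

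At a nerve terminal, vesicles are filled with transmitter by membrane transporters, tethered by synapsins and Rab3 proteins, and docked at the active zone, a protein scaffold built around Rims, Bassoon (Bsn) and Piccolo (Pclo). Unc13 proteins prime the docked vesicles, and fusion follows when the vesicle SNARE (a Vamp) zips together with a syntaxin and Snap25 on the plasma membrane. Complexins clamp the assembled SNAREs, and synaptotagmins on the vesicle sense the calcium that triggers fusion. Excitatory terminals of the hippocampus mostly load glutamate with Slc17a7, whereas Slc17a6 is the transporter typical of subcortical neurons. Several family members described below work at other membranes, such as endosomes, the Golgi apparatus and autophagosomes.

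The arrays were checked against their labels with Dio2. In the saline groups Dio2 lay between 7.87 and 8.28 in control mice and between 6.52 and 7.09 in Astro-D2KO mice, with no overlap. The array labelled Astro-D2KO SE replicate 1 read 8.91, against 7.03, 7.17 and 7.12 in the others of its group. Control SE replicate 4 read 7.99 for Dio2 against 9.51, 9.11 and 9.24 in the others, and 8.96 for Npas4, an activity-induced transcription factor, against 11.57, 11.13 and 11.39. Without both of these arrays the count of release genes that passed the SE test averaged over genotypes was 35, against 38 with them. The mean over all 22180 genes lay between 6.31 and 6.33 on every array. The mean over the 78 release genes lay between 8.37 and 8.42 in control saline, 8.25 and 8.37 in control SE, 8.34 and 8.38 in Astro-D2KO saline, and 8.25 and 8.32 in Astro-D2KO SE. Snap25, itself a neuronal marker, was at 12.79 or above on every array.

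The promoters of the release genes were searched for letters bound by factors that neuronal activity induces. RefSeq windows on GRCm38.p6, running from 250 bases before a gene's start to 50 after it, were matched for 62 of the 78 genes and gave 84 windows. Stretches of 160 bases just before the start are shown 5′ to 3′ on the gene's strand for 3 genes that fell strongly in both genotypes, Stxbp4, Stxbp6 and Stx17, and for Syn1, the release gene with a lower level after SE whose window held a full cAMP response element. They lie at chr11:90638109-90638268 (minus strand, Stxbp4), chr12:45074484-45074643 (minus strand, Stxbp6), chr4:48124759-48124918 (plus strand, Stx17) and chrX:20920919-20921078 (minus strand, Syn1). Capitals mark matches to the motifs searched, on either strand.
Stxbp4 promoter: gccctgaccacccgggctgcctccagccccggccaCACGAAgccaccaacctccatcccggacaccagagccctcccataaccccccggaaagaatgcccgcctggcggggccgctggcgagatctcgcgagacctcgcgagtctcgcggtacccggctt
Stxbp6 promoter: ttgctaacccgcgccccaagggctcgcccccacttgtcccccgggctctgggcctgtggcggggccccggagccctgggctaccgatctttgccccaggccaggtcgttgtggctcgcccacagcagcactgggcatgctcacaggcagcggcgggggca
Stx17 promoter: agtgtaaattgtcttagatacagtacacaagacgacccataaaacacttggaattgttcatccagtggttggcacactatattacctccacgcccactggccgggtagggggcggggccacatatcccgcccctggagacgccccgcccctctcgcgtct
Syn1 promoter: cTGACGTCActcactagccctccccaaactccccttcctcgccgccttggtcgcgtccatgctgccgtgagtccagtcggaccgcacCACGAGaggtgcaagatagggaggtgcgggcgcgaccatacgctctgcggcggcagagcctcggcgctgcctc

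The cAMP response element TGACGTCA was found in 2 of the 84 windows (2.38%), beside 1.79% of the 32851 windows in the reference. The AP-1 element TGANTCA was found in 5 windows (5.95%, beside 7.81% of all), the Egr element GCGTGGGCG in 1 (1.19%, beside 0.612%) and the Npas4 type element NTCGTG in 14 (16.7%, beside 16%). Both strands were searched, and the 4 motifs do not contain one another. Stxbp4 held a match to the Npas4 type element in the stretch shown, Syn1 held that element and the cAMP response element, and the stretches of Stxbp6 and Stx17 held no match to these letters. A match is a description of the letters, not of binding.

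After SE, more release genes fell than rose. Averaged over the genotypes, 38 of the 78 (48.7%) passed limma's moderated test at an adjusted p under 0.05, where 32.6% of all genes passed. Of these, 30 fell (38.5%, beside 20.6% of all genes) and 8 rose (10.3%, beside 12.1%). Only 4 of the 78 lay below the median of all values, so the shares over all genes are not matched for level. The changes were mostly small. The median difference over the 78 was -0.11 on the log2 scale, against -0.01 over all genes. With a change past 1.5-fold required as well, 4 release genes passed (5.13%, close to the 5.33% of all genes). Syt4 rose (1 gene, where 3.46% of all genes rose this far), and Syt17, Stxbp6 and Syn3 fell (3 genes, where 1.87% of all genes did). Syt4, on vesicles that carry peptides, showed the largest change of the 78, a rise of 3.65-fold.

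**Figure D1:**
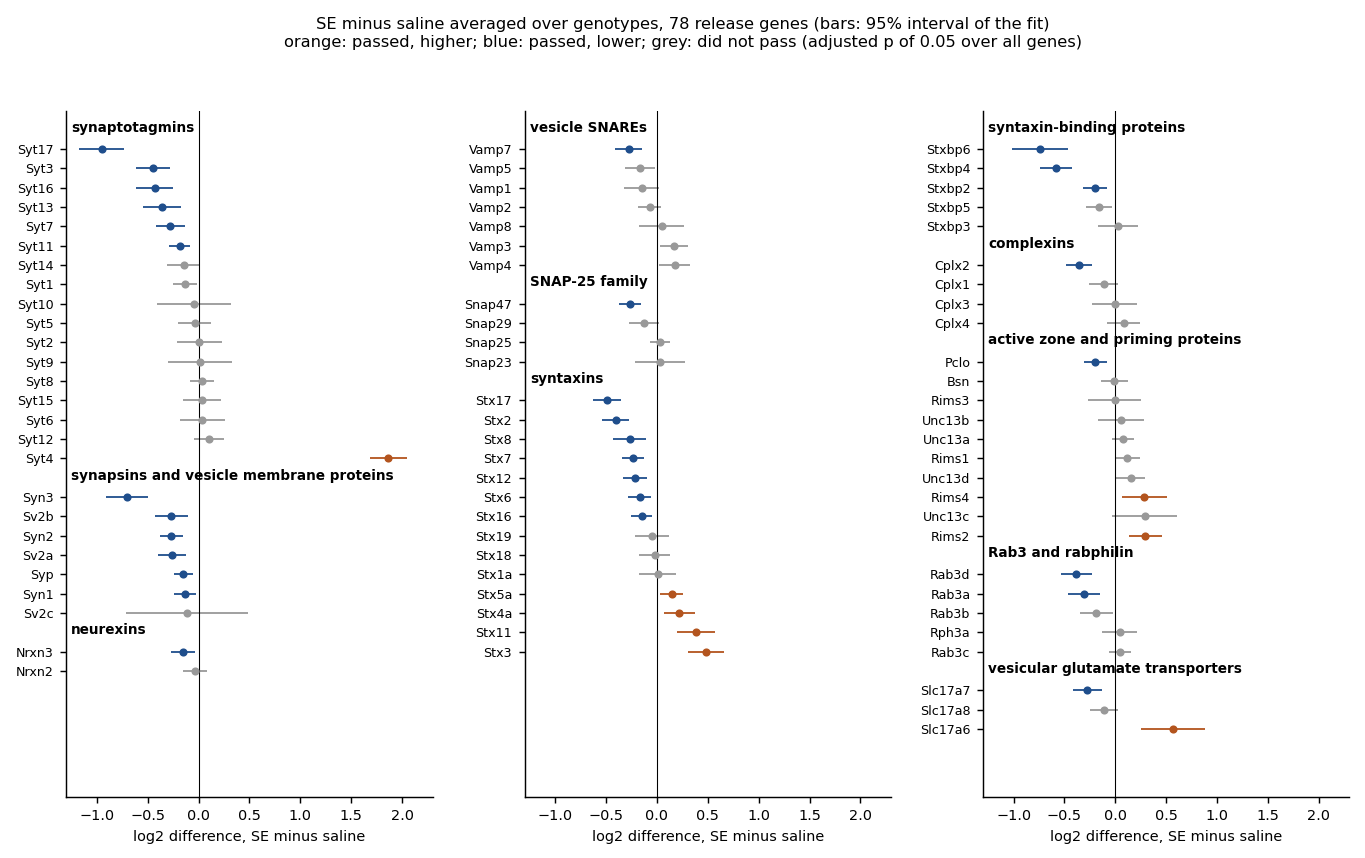
Log2 difference between SE and saline averaged over genotypes for the 78 release genes, grouped by role, with 95% confidence intervals; orange and blue points passed limma's test as higher or lower. Syt4 stands apart at 1.87, and most other genes lie within 0.5 of zero.

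Synaptotagmins are the calcium sensors of the family. Of 17 measured, 1 rose, 6 fell and 10 did not pass. Syt4, which binds calcium poorly and sits on vesicles that carry peptides and neurotrophins, read 9.19, 9.27, 9.23 and 9.30 in control saline and 11.14, 10.80, 10.93 and 11.24 in control SE. In Astro-D2KO mice it read 9.12, 9.0, 9.26 and 9.5 under saline and 10.92, 11.37, 11.30 and 11.10 after SE. Every SE array lay more than a log2 unit above every saline array. The difference averaged 1.87 ± 0.085 (SE of the fit; adjusted p = 6.39e-11). It was 1.78 ± 0.121 in control and 1.95 ± 0.121 in Astro-D2KO mice. Syt4 has 2 further probe sets, at lower levels, which differed by 0.29 and 0.78 in control mice and by 0.46 and 0.73 in Astro-D2KO mice. The mean of the 3 probe sets rose by 1.00.

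Syt17, a family member known from the Golgi and endosomes, changed in the opposite direction. It read 9.09, 9.13, 9.52 and 9.32 in control saline, and 8.70, 8.17, 8.06 and 8.29 in control SE. In Astro-D2KO mice the readings were 9.44, 9.10, 9.37 and 8.87 under saline, and 8.24, 8.14, 8.11 and 8.5 after SE. The groups did not overlap in either genotype, and the gene fell by 0.95 ± 0.105 on average (1.93-fold lower, adjusted p = 2.04e-06). Syt3, a sensor with high affinity for calcium, fell by 0.45 ± 0.079 (adjusted p = 0.000238), with 7.81 to 8.05 in control saline against 7.29 to 7.76 in control SE. Syt7, the sensor of asynchronous release, fell by 0.28 ± 0.069 (adjusted p = 0.00449). The other 3 that fell, Syt16, Syt13 and Syt11, lack the usual calcium binding residues and stood at -0.43, -0.36 and -0.18. Syt1, the sensor of fast synchronous release, differed by -0.13 (95% interval -0.25 to -0.02) and did not pass (adjusted p = 0.0778). Its arrays overlapped in control mice, at 11.89 to 12.18 under saline and 11.80 to 12.02 after SE.

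Synapsins, which tether the reserve pool of vesicles, and the membrane proteins of the vesicle were mostly lower after SE. Of 7 measured, 6 fell and none rose, and Sv2c did not pass. Syn3, the synapsin of developing and adult-born neurons, fell most. It read 8.88, 8.96, 8.57 and 8.79 in control saline and 7.73, 8.27, 8.31 and 8.11 in control SE, and 8.68, 8.77, 8.41 and 8.72 in Astro-D2KO saline and 7.62, 7.90, 8.03 and 8.20 in Astro-D2KO SE. All 8 SE arrays lay below all 8 saline arrays. The fall averaged 0.70 ± 0.098, or 1.63-fold (a log2 difference of -0.70; adjusted p = 2.55e-05).

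The more widely expressed synapsins differed less. Syn2 read 11.22 to 11.36 in control saline against 11.01 to 11.11 in control SE, and 11.27 to 11.53 in Astro-D2KO saline against 10.91 to 11.14 in Astro-D2KO SE. It fell by 0.27 ± 0.054 (adjusted p = 0.000787), with no overlap in either genotype. Syn1 stood at -0.14 ± 0.051 (adjusted p = 0.0487), a call lost when most single arrays were left out. Its arrays did not overlap in control mice, at 10.87 to 11.05 against 10.73 to 10.80, but did in Astro-D2KO mice, at 10.82 to 11.05 against 10.81 to 10.98. Sv2a, the vesicle protein bound by the antiseizure drug levetiracetam, fell by 0.26 ± 0.065 (adjusted p = 0.00487). It read 9.94 to 10.13 in control saline and 9.74, 10.11, 9.82 and 9.62 in control SE, so that 1 SE array overlapped the saline range. Its paralogue Sv2b fell by 0.27 ± 0.078 (adjusted p = 0.0131). Synaptophysin (Syp), a standard marker of synaptic vesicles, fell by 0.15 ± 0.044 (adjusted p = 0.0124), from 11.37 to 11.46 in control saline to between 11.21 and 11.28 in control SE. Averaged over its 2 probe sets, Syp did not pass (-0.05). Sv2c differed by -0.11 with an interval of -0.71 to 0.48, too wide to place it.

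**Figure D2:**
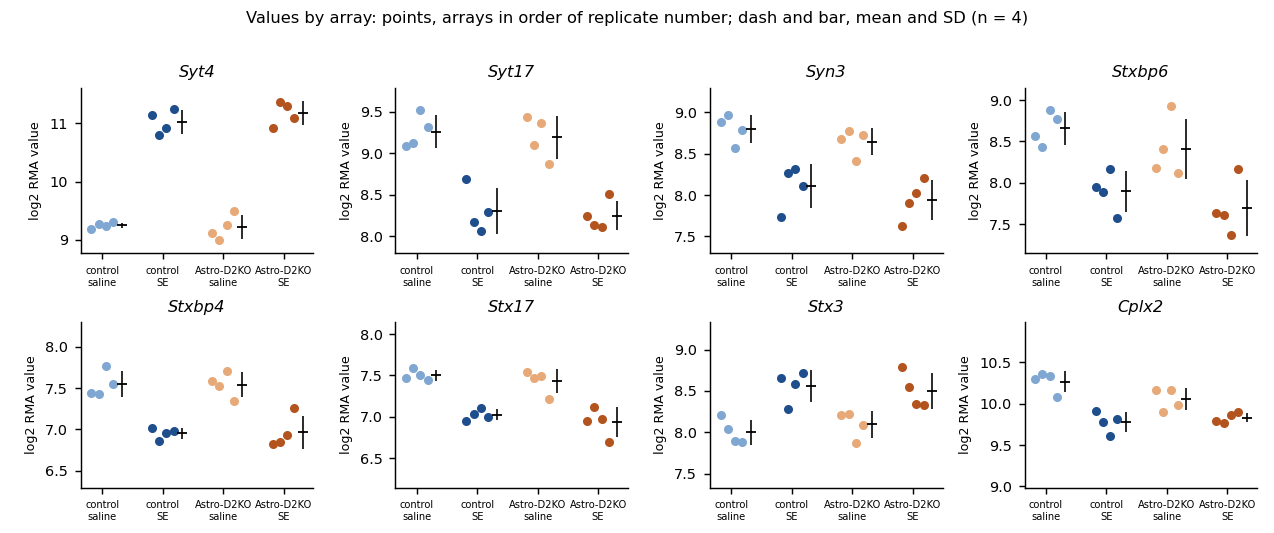
Log2 intensity on each of the 16 arrays for release genes that changed after SE, with 4 mice per group and horizontal bars at the group means. Syt4 is at or above 10.80 in every SE array and at or below 9.5 in every saline array, while Syt17 and Syn3 show the reverse order.

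The SNARE proteins that carry out fusion at the presynaptic membrane moved little. Snap25 read 12.79, 12.90, 12.87 and 12.98 in control saline and 12.89, 12.97, 12.95 and 12.84 in control SE, and all 4 groups overlapped. Its average difference was 0.03 ± 0.048, with an interval of -0.07 to 0.13 (adjusted p = 0.697). Stx1a, the plasma membrane syntaxin paired with Snap25, differed by 0.01 (interval -0.18 to 0.19). Vamp2, the main vesicle SNARE of the forebrain, differed by -0.07 (interval -0.18 to 0.04), at 9.18 to 9.41 in control saline and 9.14 to 9.32 in control SE. In Astro-D2KO mice it read 9.29 to 9.39 under saline and 9.14 to 9.29 after SE, which narrowly did not overlap. The intervals of Snap25, Stx1a and Vamp2 lie inside a change of 1.5-fold in either direction. Vamp1, its relative in fast-firing circuits, stood at -0.15 ± 0.081 and did not pass (adjusted p = 0.179). Of the 7 vesicle SNAREs, Vamp7, a SNARE of late endosomes and lysosomes, was the 1 that passed on average. It fell by 0.28 ± 0.063 (adjusted p = 0.0021). Vamp4, a SNARE of the Golgi and endosomes, stood at 0.17 on average (adjusted p = 0.0741). In control mice alone it was at 0.30 (adjusted p = 0.0408), a call lost when control saline 1, 3 or 4, control SE 2 or 3, or Astro-D2KO SE 2 was left out (0.23 to 0.32). Snap47, a relative of Snap25 without its membrane anchor, was the sole member of 4 in its family to pass and fell by 0.26 ± 0.052 (adjusted p = 0.000685), from 9.80 to 9.93 in control saline to between 9.34 and 9.63 in control SE.

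**Figure D3:**
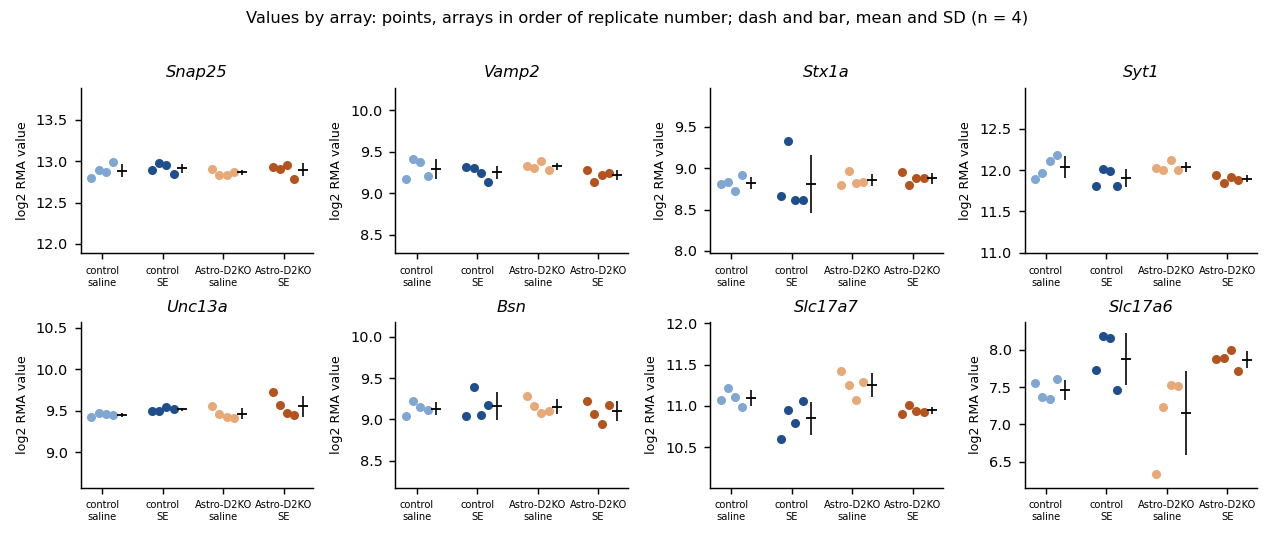
Log2 intensity on each array for core release genes, the glutamate transporters Slc17a7 and Slc17a6 included, with 4 mice per group and bars at the group means. Snap25 lies between 12.79 and 12.98 in every group.

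Syntaxins, of which most serve traffic inside the cell, moved in both directions. Of 14 measured, 4 rose and 7 fell. Stx17, the syntaxin of autophagosome fusion, read 7.46, 7.59, 7.5 and 7.45 in control saline and 6.95, 7.04, 7.11 and 7.0 in control SE. In Astro-D2KO mice it read 7.55, 7.47, 7.5 and 7.22 under saline and 6.95, 7.12, 6.98 and 6.69 after SE. It did not overlap in either genotype and fell by 0.49 ± 0.066 (adjusted p = 1.73e-05). Stx2, a plasma membrane syntaxin, fell by 0.41 ± 0.064 (adjusted p = 8.05e-05), from 7.27 to 7.58 in control saline to between 6.83 and 7.0 in control SE. The endosomal syntaxins Stx8, Stx7 and Stx12 fell as well, by 0.27, 0.24 and 0.22 on the log2 scale. Stx16 and Stx6, which act at the Golgi, stood at -0.15 (adjusted p = 0.0239) and -0.17 (adjusted p = 0.0191).

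Stx3, a plasma membrane syntaxin that also serves exocytosis in dendrites, rose. It read 8.20, 8.03, 7.89 and 7.88 in control saline and 8.65, 8.29, 8.58 and 8.72 in control SE, and 8.21, 8.22, 7.86 and 8.09 in Astro-D2KO saline and 8.79, 8.54, 8.34 and 8.33 in Astro-D2KO SE. The groups did not overlap in either genotype, and the average rise was 0.48 ± 0.086, or 1.40-fold (adjusted p = 0.000275). Stx11, a syntaxin best known from secretion by immune cells, rose by 0.38 ± 0.088 (adjusted p = 0.00253), from 5.42 to 5.85 in control saline to 5.97 to 6.17 in control SE. Stx4a and Stx5a, at the plasma membrane and the Golgi, stood at 0.22 (adjusted p = 0.0247) and 0.15 (adjusted p = 0.0442).

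Proteins that bind syntaxins fell in 3 of 5 cases and rose in none. Stxbp6, also called amisyn, which competes with the vesicle SNARE for its partners, read 8.56, 8.43, 8.88 and 8.77 in control saline and 7.94, 7.89, 8.17 and 7.58 in control SE. In Astro-D2KO mice it read 8.18, 8.41, 8.93 and 8.12 under saline and 7.63, 7.61, 7.37 and 8.17 after SE, so that replicate 4 of the SE group lay among the saline values. The average fall was 0.74 ± 0.129, or 1.67-fold (adjusted p = 0.000222). Stxbp4, a binding partner of Stx4a studied in insulin-driven transport, read 7.45, 7.43, 7.76 and 7.55 in control saline and 7.01, 6.86, 6.95 and 6.98 in control SE. The Astro-D2KO readings were 7.58, 7.52, 7.71 and 7.34 under saline and 6.82, 6.84, 6.93 and 7.26 after SE. No array overlapped in either genotype, and the fall averaged 0.58 ± 0.075, or 1.5-fold (adjusted p = 1.08e-05). Stxbp2 fell by 0.20 ± 0.057 (adjusted p = 0.00972).

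Of the 4 complexins, which clamp assembled SNAREs, Cplx2 fell and the others did not pass. Cplx2 read 10.30, 10.36, 10.33 and 10.08 in control saline and 9.91, 9.78, 9.61 and 9.81 in control SE. In Astro-D2KO mice it read 10.17, 9.90, 10.17 and 9.98 under saline and 9.80, 9.77, 9.86 and 9.90 after SE. The groups lay apart in both genotypes, though narrowly in the Astro-D2KO one, where the lowest saline and the highest SE reading both round to 9.90. The average fall was 0.36 ± 0.062 (adjusted p = 0.000204), made up of -0.49 in control and -0.23 in Astro-D2KO mice. The difference between these responses was 0.27 (interval 0.00 to 0.53, unadjusted p = 0.0463, adjusted p = 0.998 over all genes by limma). Cplx1 stood at -0.12 ± 0.069 (adjusted p = 0.229), made up of 0.02 in control and -0.25 in Astro-D2KO mice, neither of which passed. Its arrays did not overlap in Astro-D2KO mice, at 10.58 to 10.66 under saline and 10.18 to 10.46 after SE. In control mice they overlapped, at 10.53 to 10.65 and 10.42 to 10.92, with the highest reading in SE replicate 2.

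Active zone and priming proteins gave 2 rises and 1 fall among 10. Rims2, a scaffold that binds calcium channels and Rab3, rose by 0.30 ± 0.077 (adjusted p = 0.00598), from 8.41 to 8.82 in control saline to between 8.69 and 9.12 in control SE. Rims4 stood at 0.28 ± 0.104 (adjusted p = 0.0432), which most left-out arrays moved past the threshold. Pclo fell by 0.20 ± 0.054 (adjusted p = 0.00851), and its large partner Bsn differed by -0.01 (interval -0.14 to 0.13). Unc13a, the main priming factor, differed by 0.08 (interval -0.03 to 0.18), and Rims1 by 0.12 ± 0.058 (adjusted p = 0.139). The intervals of Bsn and Unc13a lie inside a change of 1.5-fold. Among the Rab3 GTPases, which mark docked vesicles, Rab3d fell by 0.38 ± 0.073 (adjusted p = 0.000487) and Rab3a, the neuronal form, by 0.31 ± 0.076 (adjusted p = 0.00395). The second probe set of Rab3d differed by 0.00 in control and 0.12 in Astro-D2KO mice, and the mean of both stood at -0.16. Rph3a, a Rab3 effector, differed by 0.04 ± 0.081 (adjusted p = 0.751).

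The vesicular glutamate transporters moved in opposite directions. Slc17a7, the transporter of most hippocampal glutamate terminals, fell by 0.28 ± 0.068 (adjusted p = 0.00428). It read 11.07, 11.22, 11.10 and 10.98 in control saline against 10.60, 10.95, 10.79 and 11.06 in control SE, and 11.42, 11.25, 11.07 and 11.28 against 10.91, 11.01, 10.94 and 10.93 in Astro-D2KO mice. The ranges overlapped in control mice only through SE replicate 4. Slc17a6 rose by 0.57 ± 0.148 (adjusted p = 0.00632), from readings of 7.55, 7.37, 7.34 and 7.61 to 7.73, 8.18, 8.15 and 7.46 in control mice. In Astro-D2KO mice it went from 6.33, 7.23, 7.53 and 7.52 to 7.87, 7.89, 8.00 and 7.71. Astro-D2KO saline replicate 1 is the lowest of all 16 arrays for this gene, and without it the Astro-D2KO difference went from 0.72 (adjusted p = 0.0215) to 0.44 and no longer passed. Nor did it pass without Astro-D2KO SE replicate 3, at 0.67. Of 8 other markers of thalamus and habenula, where Slc17a6 is the usual transporter, Tcf7l2 rose after SE averaged over genotypes, by 0.26, and none fell. In Astro-D2KO mice alone Calb2, from the same list, was lower by that test, at -0.98 (adjusted p = 0.0389). The mean of all 9, Slc17a6 included, lay between 6.69 and 6.81 in control saline, 6.61 and 6.99 in control SE, 6.6 and 7.11 in Astro-D2KO saline and 6.52 and 6.74 in Astro-D2KO SE. Of 5 neocortex markers that are no release genes, 2 rose, Rorb and Nr4a2, while Cux2, Lamp5 and Tbr1 did not pass. In control mice the mean of Rorb went from 8.37 to 9.18 and that of Nr4a2 from 8.70 to 11.66. A response of such a marker gene to SE cannot be told apart here from more tissue of its kind. The part of thalamus, habenula or neocortex tissue in the Slc17a6 result was not tested. Slc17a8 differed by -0.11 ± 0.067 (adjusted p = 0.225).

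Neurexins are presynaptic adhesion proteins that face postsynaptic partners across the cleft. Nrxn3 stood at -0.15 ± 0.057, with an adjusted p of 0.0473 that most left-out arrays moved past the threshold. Nrxn2 differed by -0.03 ± 0.057 by the probe set with the higher level. Its other probe set differed by -0.28 in control and -0.36 in Astro-D2KO mice (adjusted p = 0.117 and 0.0464 over all single-symbol probe sets), so that the 2 probe sets of this gene disagree.

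Within each genotype alone, fewer genes passed. In control mice 25 of 78 release genes passed (32.1%, beside 22.1% of all genes), 4 higher (8.42% of all genes) and 21 lower (13.7%). Fitted to the 8 control arrays alone, 15 passed (19.2%, beside 17.1% of all genes), so that the margin over all genes was smaller in that fit. In Astro-D2KO mice 16 passed (20.5%, close to the 20.1% of all genes), 3 higher (7.49% of all genes) and 13 lower (12.6%). With a change past 1.5-fold as well, 5 release genes passed in the controls (5.68% of all genes) and 5 in the Astro-D2KO group (5.45%). The saline and SE arrays did not overlap for 26 release genes in control mice (33.3%, beside 22.1% of all genes) and for 27 in Astro-D2KO mice (34.6%, beside 24.6%). Of the former 4 were higher (8.46% of all genes) and 22 lower (13.7%), and of the latter 6 were higher (9.54%) and 21 lower (15.1%). The 11 genes that passed in both genotypes make up 44% of the control list and 68.8% of the Astro-D2KO list, and all 11 had the same direction in both. They were Syt4 and Stx3, which were higher, and Syt17, Stxbp6, Syn3, Stxbp4, Stx17, Stx2, Syt3, Syt16 and Syn2, which were lower. These genotypes do not share arrays, but the fit took the spread of each gene from all 16 arrays. The lists are therefore not independent. No such overlap was counted over all genes, so these shares stand without a comparison. Calls within a genotype depended on single arrays more than the averaged ones. In control mice Syt3 lost its call when saline replicate 3 (-0.35), SE replicate 1 (-0.33) or SE replicate 4 (-0.32) was left out, and Syn2 lost it for saline replicates 2, 3 and 4 and SE replicates 1, 3 and 4 (-0.24 to -0.21). In Astro-D2KO mice Stx3 lost its call when saline replicate 3 (0.33), the array labelled SE replicate 1 (0.31) or SE replicate 2 (0.39) was left out, and Syt16 lost it for saline replicate 3 (-0.37), SE replicate 2 (-0.41) and SE replicate 3 (-0.35).

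No release gene passed between genotypes, but the test did not call the deleted gene either. Dio2 differed by -1.36 ± 0.348 under saline (adjusted p = 0.999 by limma, unadjusted p = 0.00108) and by -1.41 ± 0.348 after SE (adjusted p = 0.532). Its error takes in the arrays flagged above for this gene, and the error of Syt4 under saline was 0.121. Dio2 therefore does not measure how small a change in a release gene would pass. A count of 0 does not exclude smaller changes. Both flagged arrays are in the SE groups, and the comparisons that use these groups keep them as labelled. Under saline, none of 78 release genes and none of 22180 genes (0%) passed between Astro-D2KO and control mice, and the same held after SE (0%) and averaged over treatments (0%). At an unadjusted p under 0.05, limma gave 3 release genes under saline (3.99% of all genes), 2 after SE (6.12%) and 3 on average (5.37%). The differences ran from -0.37 to 0.27 under saline and from -0.32 to 0.31 after SE. The 95% intervals lay inside a change of 1.5-fold for 73 of 78 genes under saline and 72 after SE, which bounds most single genes but does not show that the genotypes are alike. Syt4 under saline read 9.19 to 9.30 in control and 9.0 to 9.5 in Astro-D2KO mice, and Snap25 read 12.79 to 12.98 and 12.84 to 12.91.

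The release gene with the smallest unadjusted p between genotypes was Vamp1, which is named for that reason. It read 8.41, 8.5, 8.54 and 8.75 in control saline and 8.24, 8.17, 8.38 and 8.27 in Astro-D2KO saline, without overlap. After SE it read 8.32, 8.74, 8.40 and 8.08 in control and 8.24, 8.02, 8.21 and 8.05 in Astro-D2KO mice, with overlap. Averaged over treatments it differed by -0.27 ± 0.081 (unadjusted p = 0.00396 by limma), which does not pass over all genes (adjusted p = 0.791). Under saline 3 release genes had groups without overlap, all lower in Astro-D2KO mice, Vamp1, Rph3a and Stx5a (3.85%, beside 1.34% of all genes lower and 1.27% higher, 2.61% in all). After SE there was 1, Syn1, higher in Astro-D2KO mice (1.28%, beside 1.53% of all genes higher and 1.40% lower, 2.94% in all).

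The same limit holds for the dependence of the SE response on genotype. None of the 78 release genes passed the test of the difference between responses (0% of all genes), and at an unadjusted p under 0.05 limma gave 1, Cplx2, beside 4.65% of all genes. For Syt4 the Astro-D2KO response exceeded the control one by 0.17 (interval -0.18 to 0.53), and for Syt17 the responses differed by 0.01 (interval -0.43 to 0.45). The interval lay inside a change of 1.5-fold for 65 of 78 genes.

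**Figure D4:**
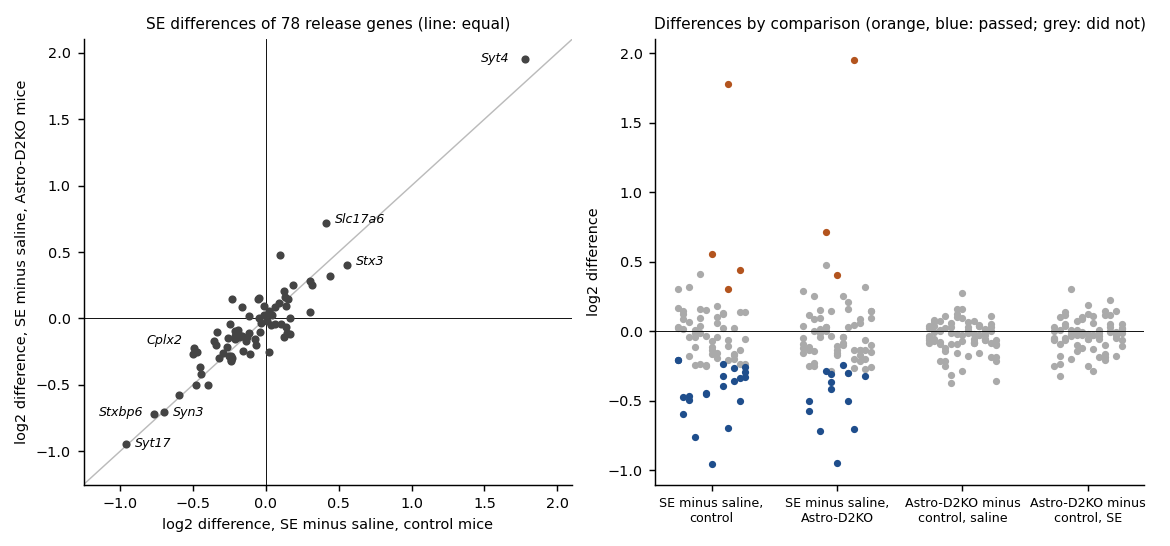
Left, the SE differences of the 78 release genes in control mice (x axis) and Astro-D2KO mice (y axis), both log2, with a line of equality. Right, log2 differences in 4 comparisons of groups, where orange and blue points passed as higher or lower and grey did not; none passed between genotypes.

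Other synaptic proteins were counted from a list that spans vesicle recycling, endocytosis, further vesicle proteins, active zone scaffolds, calcium channels and partners of neurexins. Of these partners, the Nlgn and Lrrtm proteins are postsynaptic. Of 50 listed genes 47 were measured, and 27 passed after SE averaged over genotypes, 8 higher and 19 lower, beside 12.1% and 20.6% of all genes (32.6% in all). These counts include the 9 partners of neurexins, of which 2 were higher and 1 lower. The scaffolds of the active zone split. Erc1 rose by 0.80 ± 0.072 (adjusted p = 1.92e-07), from 8.12, 8.16, 8.21 and 8.09 in control saline to 9.14, 8.99, 9.33 and 8.94 in control SE, with 8.04 to 8.34 against 8.63 to 9.05 in Astro-D2KO mice. Its neuronal paralogue Erc2 fell by 0.62 ± 0.066 (adjusted p = 1.42e-06), from 10.24, 10.37, 10.16 and 10.09 to 9.56, 9.58, 9.77 and 9.62 in control mice, and from 10.18 to 10.46 to between 9.5 and 9.88 in Astro-D2KO mice. Neither gene overlapped between SE and saline in either genotype. Rimbp2, which links Rims to calcium channels, fell by 0.56 ± 0.094, and the liprin Ppfia4 by 0.53 ± 0.076, while the liprin Ppfia2 rose by 0.39.

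Clathrin, the coat of endocytosis, rose in its heavy chain Cltc (0.57 ± 0.061, adjusted p = 1.32e-06) and light chain Cltb (0.42), while the other light chain Clta stood at -0.01 and did not pass. By contrast, the endocytic proteins Amph and Dnm1 fell by 0.28 and 0.23. The recycling ATPase Nsf and its adaptors Napa and Napg, which take spent SNARE complexes apart, fell by 0.16, 0.25 and 0.22, and the adaptor Napb stood at -0.10 and did not pass (adjusted p = 0.140). The vesicle transporter Slc6a17 rose by 0.49 ± 0.092. Among the postsynaptic partners of neurexins, Nlgn3 fell by 0.48 ± 0.060 and Lrrtm1 rose by 0.52 ± 0.105.

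**Figure D5:**
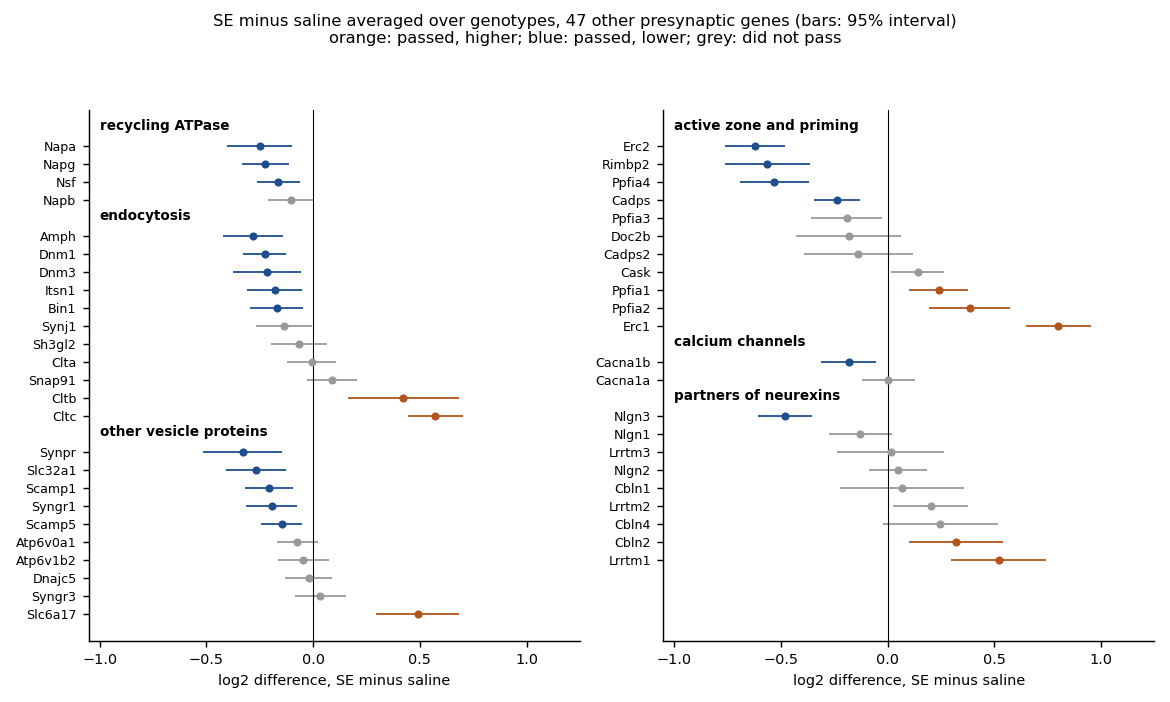
Log2 difference between SE and saline averaged over genotypes for 47 other synaptic genes, postsynaptic partners of neurexins included, with 95% confidence intervals. Orange and blue points passed limma's test as higher or lower. Erc1 at 0.80 and Erc2 at -0.62 are the outermost genes on the 2 sides.

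Markers of several cell types were measured beside the release genes. The mean of 12 neuronal markers lay between 9.99 and 10.04 in control saline and 10.02 and 10.16 in control SE, and between 9.96 and 10.00 and 9.99 and 10.07 in Astro-D2KO mice. Of 11 of them that are no release genes, 3 rose and 5 fell after SE. Of 6 dentate granule cell markers 3 fell, namely Dsp, Lct and C1ql2, at -1.41, -1.01 and -0.97, while Tdo2, Prox1 and Calb1 stood at 0.42, 0.18 and 0.06 and did not pass. That list's mean lay between 7.37 and 8.04 in control saline and 6.74 and 7.48 in control SE, and between 6.98 and 7.95 and 6.99 and 7.25 in Astro-D2KO mice. Averaged over genotypes, 1 of 4 CA1 markers rose and none fell, and 1 of 6 CA2 and CA3 markers fell and none rose. Of 8 interneuron markers 2 rose and 1 fell. Of 7 microglia markers 4 fell, and their mean went from 7.41 to 7.61 to between 6.91 and 7.30 in control mice. In Astro-D2KO mice it went from 7.47 to 7.59 to between 6.92 and 7.24. The part of these cells in the release gene results was not tested.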

How the data were processed

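Hippocampal RNA of 16 mice was hybridised to Affymetrix arrays. The deposited table holds RMA values per the submitters' processing notes (version not stated there). The authors' values were taken as log2 from their range of 1.70 to 13.79, since no scale is given in the sources used here. RMA equalises array distributions, so a change shared by all genes would not be seen. Of 41345 probe sets 23521 carried 1 gene symbol, 1814 several and 16010 none. The probe set with the highest mean stood for each of 22180 genes.

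Group means over all 16 arrays were fitted with limma 3.58.1 in R 4.3.3, with Benjamini-Hochberg adjustment over all genes and a threshold of 0.05, in 7 contrasts. Tested on simulated data for 22180 genes with SE against saline in control mice, the fit recovered 43 of 67 changes of 0.5, 64 of 67 of 1 and 66 of 66 of 2 (log2), with 13 false calls. Where nothing but the title separates mice, p-values measure the spread between these samples. The release genes and lists were chosen with earlier results of these data known. Genes were named if they passed, up to 30 per contrast by size of change, or belonged to a core list of which 24 of 27 were measured. Alternatives covered probe sets, scaling, filters, weights, priors, replicate block, groups fitted and each array left out. The number of arrays limits the precision. Replicate numbers did not pair the mice.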

Additional observations from a re-analysis of the deposited data

Results flagged for a closer look

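In 5 of 196 sets of 4 arrays, each holding 1 named gene in 1 group, a single array lay far from the other 3 by Dixon's test, which chance alone does in about 1 of 20. Stx1a read 9.33 in control SE replicate 2, above 8.61 to 8.66 in the other arrays of that group. Sv2c read 7.18 in Astro-D2KO saline replicate 3, below 8.41 to 8.61. Syn2 read 11.53 in Astro-D2KO saline replicate 1, above 11.27 to 11.31. Stx16 read 8.03 in Astro-D2KO saline replicate 3, below 8.17 in the other 3. On this array the mean of 7 choroid plexus markers was 7.63, against 6.38 to 6.63 in the others of its group. That of 4 striatum markers was 6.65, against 7.06 to 7.14. The choroid plexus mean was higher still in control saline replicate 3 (8.09) and Astro-D2KO SE replicate 4 (7.81). The part of such tissue in these readings was not tested. Rims4 read 8.30 in Astro-D2KO SE replicate 4, above 8.06 to 8.08.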

How the results depend on the processing

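No named release gene that passed changed direction under the alternatives run. Among those that did not pass, the sign changed in at least 1 alternative for 6 of 49 named genes (control), 4 (Astro-D2KO) and 3 (average, namely Bsn, Stx1a and Sv2c), and for 17 to 30 in the comparisons of genotypes and responses, so their signs carry no direction. The counts of release genes that passed after SE moved most with a required change of 1.5-fold, which by construction left 5 in control, 5 in Astro-D2KO and 4 on average. A fit to the arrays of the compared groups alone, with fewer samples, gave 15 in control mice (3 higher, 12 lower). Leaving out each array in turn gave counts of 18 to 27 (control), 11 to 18 (Astro-D2KO) and 34 to 38 (average). Comparisons between genotypes and of responses stayed at 0. Same-numbered mice did not deviate together (24 pairs, correlations from -0.29 to 0.34, 4 above 0.1, and 3 of 16 arrays correlated best with their own number), and with the replicate block the counts were 20, 15 and 36, and 0 elsewhere. The other synaptic genes that passed numbered 23 to 30 over the alternatives, 26 with the block.

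Of 36 named genes that passed on average, 30 passed in all alternatives run, as did 13 of 25 in control and 9 of 16 in Astro-D2KO mice. Syp did not pass with the mean of its probe sets (-0.05), and Syt4 then stood at 1.00. Stx16 lost its call when control saline replicate 4 (-0.13) or Astro-D2KO SE replicate 3 (-0.14) was left out. Stx4a lost it for control saline 3 (0.18), control SE 3, Astro-D2KO saline 1, saline 2 and SE 4 (0.20 in each). Syn1, Nrxn3 and Rims4 did not pass without most single arrays, at values from -0.15 to -0.12, -0.16 to -0.14 and 0.22 to 0.30. The number of arrays limits what smaller changes could be detected.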

Other observations

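Control SE replicate 2, the array flagged for Stx1a, also held the highest reading of its group for several other release genes. Cplx1 read 10.92 there against 10.47, 10.55 and 10.42 in the other arrays, Vamp1 8.74 against 8.32, 8.40 and 8.08, Bsn 9.40 against 9.04, 9.05 and 9.17, and Sv2a 10.11 against 9.74, 9.82 and 9.62. The mean over the 78 release genes was 8.37 on this array against 8.25, 8.31 and 8.32, and its mean over 6 neocortex markers was 8.80 against 8.17, 8.49 and 8.10. These genes were picked after their values were seen.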
